A study of Canis lupus familiaris with 10 samples.

Results

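Macrophages recognize and remove spent proteins, modified lipids, microbes and dying cells through a set of surface receptors and secreted opsonins, and 10 genes of this kind are described here in canine cutaneous histiocytoma (CCH). They encode the chains of complement C1q (C1QA, C1QB and C1QC), the lipopolysaccharide co-receptor CD14, the hemoglobin scavenger receptor CD163, the complement receptor VSIG4, the scavenger receptors MSR1, MARCO and STAB1, and the receptor tyrosine kinase MERTK. The genes were chosen by name, and all 10 had a row among the 23266 gene symbols of the table. Of these, 9 had a normalized read count of at least 10 in at least 5 libraries and were tested together with all other genes that met this condition, 12397 in total, while MARCO did not meet it.

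CCH is a benign skin tumor of dogs whose cells are of the Langerhans cell lineage, and it usually regresses on its own while lymphocytes enter the lesion. RNA was isolated from formalin-fixed, paraffin-embedded (FFPE) tumors and sequenced with QuantSeq 3′. This assay reads 1 fragment per transcript, close to its poly(A) tail, which avoids a bias from transcript length. Annotation of 3′ ends that is too short, which the study lessened by a second counting round, can still differ between genes. Its effect on comparisons of the levels of different genes was not examined. The early group held archived tumors of 5 dogs in histological group 1 of the Cockerell and Slauson scheme, and the late group held tumors of 5 other dogs in group 3, which the labels describe as lymphocyte enriched. The early dogs were 0.5 to 5 years old, with no age stated for 1 of them, and the late dogs were 1.5 to 9 years old. The dogs were of several breeds, and each sample is marked in the labels as a reanalysis of a sample entered before. By the methods of the study, tissue next to the tumor was removed before RNA was taken from whole cross sections, so each library is a mixture of tumor cells, infiltrating cells and stroma. The names of the columns give the stage of a library but not the dog, and the numbers 1 to 5 given to the libraries of a stage serve as names.

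As background, C1q is the recognition molecule of the classical complement pathway and also coats dying cells for uptake, and in most tissues macrophages are its main source. Scavenger receptors bind many ligands with overlapping range: MSR1 and MARCO are class A receptors for modified lipoproteins and microbes, STAB1 takes up modified proteins and is found on tissue macrophages and on some endothelium, and CD163 clears hemoglobin bound to haptoglobin. VSIG4 binds C3 fragments on opsonized particles, CD14 hands lipopolysaccharide to the Toll-like receptor 4 complex, and MERTK recognizes dying cells through the bridging proteins GAS6 and protein S.

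In late CCH, STAB1 was the member whose increase passed the test, with a mean 5.4 times that of early CCH. The log2 fold change (log2FC, late minus early on the scale of log2 of the normalized read count plus 1) was above 0 for all 9 tested members and reached 1 for 7 of them, with a median of 1.58, against a median of -0.004 over all genes tested. A gene was called when its Benjamini-Yekutieli (BY) adjusted p from limma was at most 0.05 and its log2FC was at least 1 in size. By this rule 1 of the 9 members was called higher and 0 were called lower, where 1.06% of all genes tested were called higher and 1.11% lower. An unadjusted p of at most 0.05 with higher values in late CCH was found for 6 members (15.6% of all genes tested), a log2FC of at least 1 at any p was found for 9.27% of all genes, and late values that all lay above all early values were found for 2 members, MSR1 and STAB1 (5.91% of all genes). The members tested had to reach the minimum value in enough libraries, and STAB1 and MERTK reached it in all 5 late but only in 3 and 2 early libraries, so that these counts describe the members and are no support for a common direction. With the less strict Benjamini-Hochberg (BH) adjustment, 4 of the 9 members were called higher, namely STAB1, MSR1, C1QB and MERTK, where 5.53% of all genes tested were called higher.

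The recovered read totals lay between 2973125 and 4439709 per library, and a gene with 0 reads could still have a level of up to 3 reads, which is 2.36 to 3.22 on the normalized scale and covers counting error only. RNA quality, given in the labels as the percentage of fragments over 200 nucleotides (DV200), was lower in the early than in the late samples (68.5% ± 2.46 against 73.2% ± 2.09, SD, n = 5 each, two-sided exact permutation p = 0.0238), and no RNA extraction batch listed by the study held both stages, which means that the effect of extraction batch and that of stage cannot be told apart. The summed values of 8 T cell genes were 61 to 2168 in early and 3813 to 5337 in late libraries, and those of 7 Langerhans and dendritic cell genes were 742 to 1811 in early and 288 to 577 in late libraries. In these bulk samples, fewer cells of a type and less RNA per cell cannot be told apart, and the part of such differences in the values of the members was not tested. Scaling by column totals moved the median log2FC of all genes to 0.087 and the share of calls that were higher from 48.7% to 64%.

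**Figure D1:**
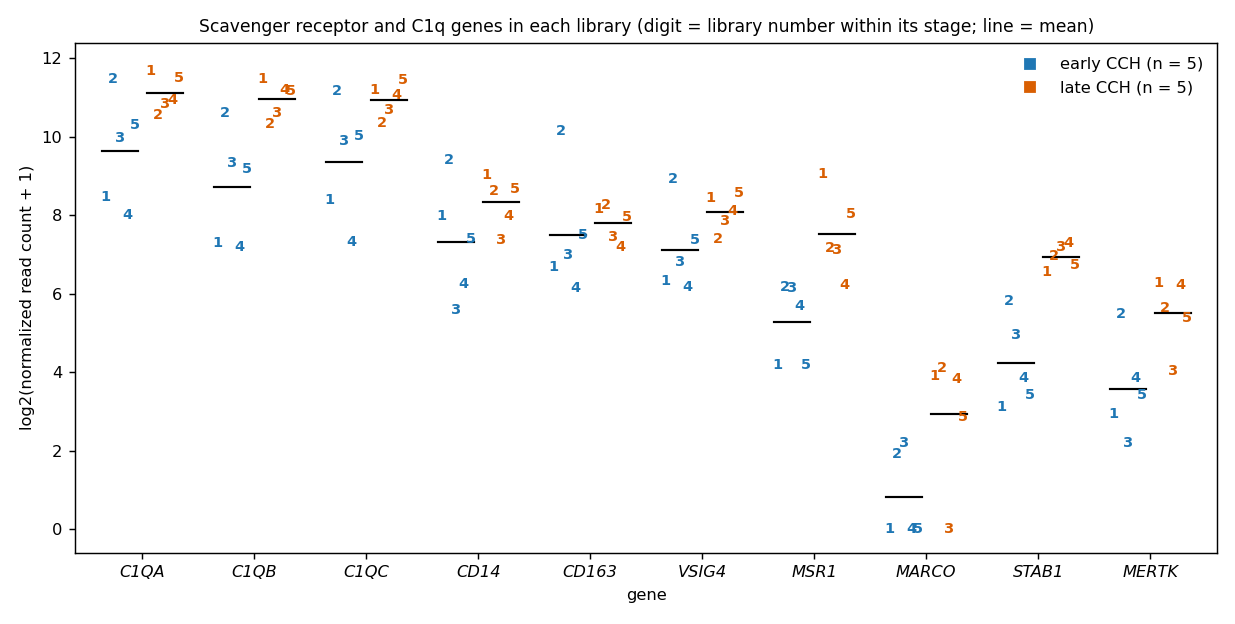
Each digit is the level of a gene in 1 library, as log2 of the normalized read count plus 1 (y axis), for the 10 genes (x axis); blue digits are early and orange digits late CCH, the digit is the library number within its stage, and black lines are group means (n = 5). Late values lie above all early values for MSR1 and STAB1, and early library 2 is the highest early library for 9 of the 10 genes.

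The C1q genes had the highest levels of all members in every library, except that CD14 exceeded C1QB in early library 1. C1QA, which encodes the A chain, had normalized read counts of 354.1, 2861, 996.9, 254.4 and 1262.5 in early libraries 1 to 5 and of 3302.2, 1502.2, 1839.1, 1965.3 and 2885.2 in late libraries 1 to 5. All 5 late values lay above the early median of 996.9, but early library 2 exceeded 3 of them. The mean was 1145.8 ± 1048.7 in early and 2298.8 ± 759.6 in late CCH (SD, n = 5 each), and the log2FC of 1.46 ± 0.54 (SE; 95% interval 0.28 to 2.64) did not pass the test (BY-adjusted p = 0.87).

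C1QB, the B chain gene, showed the widest gap between the stages of the 3 chains. Its values were 155.2, 1556.6, 645, 144.1 and 580.8 in the early libraries and 2866.7, 1280.6, 1559.3, 2338.6 and 2304 in the late libraries. The late values lay above every early value in 4 of 5 libraries, the exception being late library 2, which was below early library 2. The mean was 616.3 ± 574.8 in early and 2069.8 ± 641.4 in late CCH, 3.36 times as high, and the log2FC was 2.24 ± 0.56 (95% interval 1.02 to 3.45, BY-adjusted p = 0.193). Without early library 2 the log2FC of C1QB was 2.71 and the gene was called (BY-adjusted p = 0.0399).

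C1QC, the C chain gene, lay close to C1QA in most libraries. Its values were 337, 2300, 958.9, 159.1 and 1039.2 in early and 2345.7, 1302.5, 1644.5, 2131 and 2778.2 in late libraries. Early library 2 exceeded 3 of the late values, and the other 4 early values lay below all late values. The mean was 958.8 ± 841.3 against 2040.4 ± 580.3, and the log2FC was 1.58 ± 0.57 (95% interval 0.35 to 2.82, BY-adjusted p = 0.783).

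The proportions of the chains were also described, and the clearest difference between the stages was in C1QB. C1q protein holds its chains in equal numbers, and the genes lie side by side on chromosome 2 in the dog RefSeq annotation of the assembly UU_Cfam_GSD_1.0, C1QB next to C1QC and C1QC separated from C1QA by a long non-coding RNA gene. The summed normalized read count of the C1q genes ranged from 557.6 to 6717.6 in early libraries (mean 2721 ± 2460.1) and from 4085.3 to 8514.6 in late libraries (mean 6409 ± 1879.4), so that the groups overlapped through early library 2. Within this sum, C1QB made up 18.3%, 23.2%, 24.8%, 25.8% and 20.1% in the early libraries and 33.7%, 31.3%, 30.9%, 36.3% and 28.9% in the late libraries. The share of C1QB thus did not overlap between the stages (22.5% ± 3.15 in early and 32.2% ± 2.85 in late CCH). The share of C1QA was 42.4% ± 2.7 in early and 35.8% ± 3.09 in late CCH, with an overlap between 38.3% and 38.8%, and that of C1QC was 35.1% ± 4.19 and 32% ± 2.72. Early library 2, whose C1q sum lay within the late range, had a C1QB share of 23.2%. In early library 4, which had the lowest sum, the share was 25.8%. Whether the share followed the C1q sum was not tested. The shares are given without a test. How often the proportions of other genes do not overlap between the stages was not determined, so this separation has no background.

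**Figure D2:**
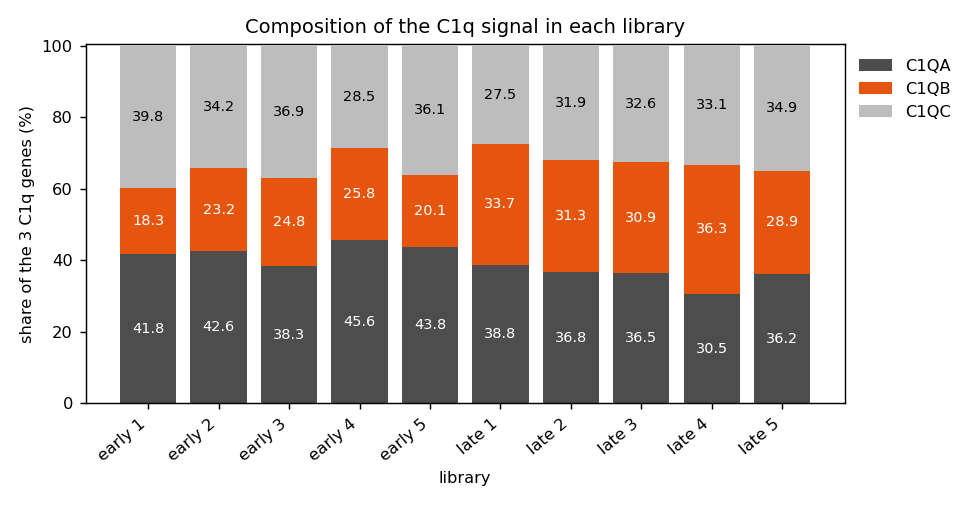
Stacked bars give the share of C1QA (dark gray), C1QB (orange) and C1QC (light gray) in the summed normalized read count of the 3 C1q genes (y axis, percent) for each library (x axis, 5 early and 5 late). The C1QB share is 18.3% to 25.8% in early and 28.9% to 36.3% in late libraries.

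CD14, which binds lipopolysaccharide on monocytes and macrophages, had a broad spread in early CCH. Its values were 252.3, 682, 47, 75.6 and 168.5 in early and 521, 391, 165.6, 252.6 and 409.2 in late libraries. Early library 2 was the highest of all 10 libraries, and the groups overlapped widely. The mean was 245.1 ± 257.3 against 347.9 ± 139.6, and the log2FC of 1.01 ± 0.60 had an interval that included 0 (95% interval -0.28 to 2.30, BY-adjusted p = 1). It was 1.53 without early library 2 and 0.57 without early library 3, and 0.51 with both edgeR and the DESeq2 Wald test, none of them called.

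CD163, often used to stain tissue macrophages, was the member with the smallest log2FC. Its values were 101.9, 1137, 126.6, 70.1 and 181.4 in early and 287.4, 306.3, 174.3, 144.2 and 245.5 in late libraries. Early library 2 alone set the direction of the comparison of means, because the early mean (323.4 ± 456.6) exceeded the late mean (231.5 ± 70.4), whereas the early median (126.6) was below the late median (245.5). The log2FC was 0.30 ± 0.60 (95% interval -0.99 to 1.60, BY-adjusted p = 1), and it was 0.97 without early library 2 (BY-adjusted p = 0.507) and -0.03 without early library 4, the library with the lowest value. No direction is given for CD163, since the count-based tests also turned its sign.

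VSIG4, the macrophage receptor for C3 fragments, had values of 79, 482, 110.4, 70.9 and 165.3 in early and 349, 166.5, 228.6, 274 and 381.9 in late libraries. All late values lay above 4 of the 5 early values and below early library 2. The mean was 181.5 ± 172 against 280 ± 87.6, and the log2FC was 0.96 ± 0.45 (95% interval -0.02 to 1.93, BY-adjusted p = 1). Without early library 2 the log2FC was 1.41 and VSIG4 was not called (BY-adjusted p = 0.104).

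Among the scavenger receptors, STAB1 had the narrowest late group and the largest log2FC of the members tested. Its values were 7.62, 54.9, 29.9, 13.4 and 9.66 in early and 93.5, 124.6, 144.3, 155.4 and 104.9 in late libraries, from 126 recovered reads in all early and 626 in all late libraries. Every late value lay above every early value, and early library 2 was again the highest of its stage. The mean rose from 23.1 ± 19.8 to 124.5 ± 26, and the log2FC was 2.72 ± 0.46 (95% interval 1.73 to 3.72, BY-adjusted p = 0.0386). The call depended on which library was left out: it was kept without early library 2 (log2FC 3.12, BY-adjusted p = 0.0122) or early library 3 (2.90, adjusted p = 0.0392), and lost without each of the other 8 libraries in turn, with a log2FC of 2.44 to 2.82 and BY-adjusted p-values of 0.0664 to 0.141. On the recovered reads, edgeR gave a log2FC of 2.44 and did not call the gene (BY-adjusted p = 0.0741), and DESeq2 gave 2.43 and called it (BY-adjusted p = 9.01e-05). STAB1 is also made by endothelium, and 9 endothelial genes summed to 531 to 1076 in early and 671 to 1290 in late libraries, with 0 of 8 tested called and a median log2FC of 0.77. Of these 8 genes, 5 had a log2FC above 0, and 3 of them had higher late values at an unadjusted p of at most 0.05. CLDN5, a tight junction protein, had the highest log2FC (1.17 ± 0.40, BY-adjusted p = 0.67), and TEK, the angiopoietin receptor, had the lowest (-0.48 ± 0.64, adjusted p = 1). The part of endothelium in the STAB1 result was not tested.

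MSR1, the class A receptor for modified lipoproteins, did not overlap between the stages either. Its values were 17.1, 71.6, 69.7, 50.4 and 17.2 in early and 530, 143.7, 137.5, 73.6 and 261.2 in late libraries. The gap between the lowest late value (library 4) and the highest early value (library 2) was small, and the late values spread 7.2-fold. The mean was 45.2 ± 26.9 in early and 229.2 ± 181.3 in late CCH, 5.07 times as high, and the log2FC was 2.25 ± 0.55 (95% interval 1.05 to 3.44). MSR1 did not pass the test (BY-adjusted p = 0.177). On the recovered reads, edgeR did not call it either (log2FC 2.35, BY-adjusted p = 0.177), and DESeq2 did (2.34, BY-adjusted p = 0.00249).

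MARCO, the other class A receptor, was close to the detection limit. Its values were 0, 2.79, 3.62, 0 and 0 in early and 13.9, 16.2, 0, 13.3 and 6.3 in late libraries, from 7 recovered reads in early and 50 in late libraries. It was thus detected in 2 of 5 early and 4 of 5 late libraries, and in the libraries at 0 the limit was 2.36 to 3.22. On the log2 scale the groups differed by 2.12, which did not pass a two-sided exact permutation test (p = 0.0794, where the design allows 0.00794 at the smallest). With 4 libraries at 0, this difference depended on the pseudocount and was 2.54 with 0.5 and 0.75 with 10.

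MERTK, which binds the bridging proteins on dying cells, was also low. Its values were 6.66, 43.7, 3.62, 13.4 and 9.66 in early and 76.6, 48.5, 15.5, 73.6 and 40.9 in late libraries, from 84 and 255 recovered reads. The other 4 early values lay below all late values, and early library 2 lay above late libraries 3 and 5. The mean was 15.4 ± 16.2 against 51 ± 25.2, and the log2FC was 1.93 ± 0.60 (95% interval 0.62 to 3.24, BY-adjusted p = 0.477).

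**Figure D3:**
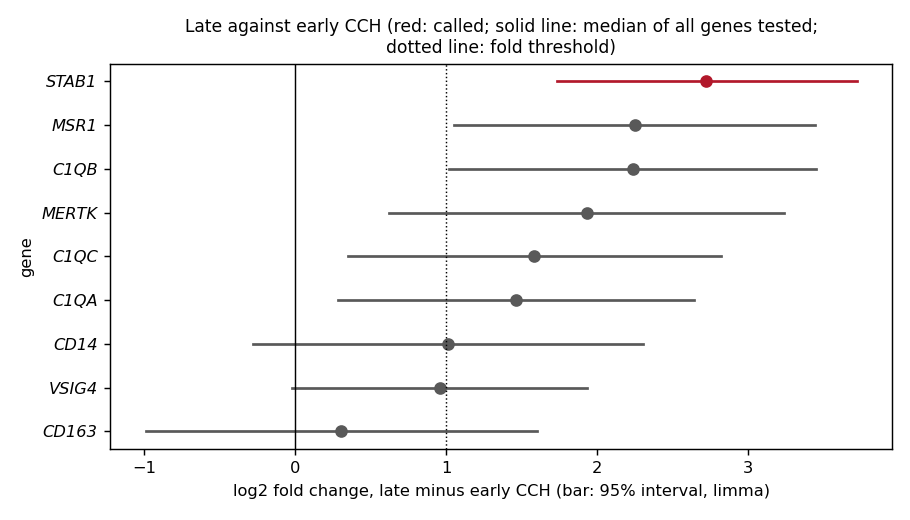
Points give the log2FC (x axis, late minus early) of the 9 members that were tested (y axis), with 95% intervals from limma as bars; STAB1, the gene that was called, is red, the solid line marks the median of all genes tested and the dotted line the fold threshold of 1. The intervals of CD163, VSIG4 and CD14 include 0, and those of STAB1, MSR1 and C1QB lie above 1.

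The order of the levels was partly shared by the stages. In early CCH, C1QA was followed by C1QC, C1QB, CD163, CD14, VSIG4, MSR1, STAB1, MERTK and MARCO. Each of these genes exceeded the next in all 5 libraries, except that CD163 exceeded CD14 in 3, CD14 exceeded VSIG4 in 4, STAB1 exceeded MERTK in 3 and MERTK exceeded MARCO in 4 libraries. Of these, the first 3 pairs differed by less than the SD of their difference. In late CCH the order was C1QA, C1QB, C1QC, CD14, VSIG4, CD163, MSR1, STAB1, MERTK and MARCO. Here C1QB exceeded C1QC in 2 libraries, CD14 exceeded VSIG4 in 3, CD163 exceeded MSR1 in 3 and MSR1 exceeded STAB1 in 3. C1QA exceeded C1QB, and VSIG4 exceeded CD163, in 4 libraries, by 0.15 ± 0.23 and 0.27 ± 0.69 on the log2 scale. None of these 6 pairs of neighbors differed by more than the SD of their difference. The step from the C1q genes to CD14 was present in all 5 late libraries and measured 2.61 ± 0.65 on the log2 scale.

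The members varied more among early than among late tumors. The SD of the log2 values within early CCH had a median of 1.41 over the 9 tested members, and within late CCH of 0.475. The early SD was the larger one for 8 of the 9 (88.9%), against 51.5% of all genes tested, for which the median SD was 0.421 in early and 0.414 in late CCH. The wider early spread was not particular to the members. The mean log2 level of 13 other macrophage and monocyte genes had an SD of 0.81 in early and of 0.15 in late libraries. The highest early value was 4.18 times the lowest for MSR1 and 16.2 times the lowest for CD163, with the other tested members in between. Libraries 2 and 4 lay at the ends of this spread: early library 2 was the highest early library for 9 of the 10 members, with CD163, VSIG4 and CD14 higher there than in any late library, and early library 4 was the lowest of all 10 libraries for CD163, VSIG4, C1QA, C1QB and C1QC. Early library 2 also had the highest summed values of its stage for other macrophage genes (33871, where the other early libraries had 13338 to 26028). The same held for fibroblast genes (60438, the others 7615 to 45798) and endothelial genes (1076, the others 531 to 943). For neutrophil genes it was highest as well (9379, the others 222 to 8078), with early library 1 close to it. Its sum was the lowest for Langerhans and dendritic cell genes (742, where the others had 911 to 1811). The part of these sums in the member values was not tested.

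The members were therefore set beside 13 other macrophage and monocyte genes of the same libraries. The level of these genes, taken as their mean log2 value in a library, was 8.67 ± 0.81 over the early and 8.84 ± 0.15 over the late libraries and thus differed by 0.17. Of the 13 genes, 0 were called, FOLR2 had the highest log2FC (1.45 ± 0.45, BY-adjusted p = 0.477), FCER1G had the lowest (-1.02 ± 0.42, adjusted p = 1), and the median log2FC was -0.01. Measured from this mean in each library, STAB1 stood at -4.44 ± 1.01 in the early and at -1.89 ± 0.38 in the late libraries on the log2 scale, which differ by 2.55. C1QB stood at 0.05 ± 0.92 and 2.12 ± 0.48, which differ by 2.07. For STAB1 and C1QB all 5 late libraries lay above the highest early library on this relative scale. For MSR1, VSIG4, MERTK, C1QA and C1QC 4 late libraries did so, with differences of 2.07, 0.78, 1.76, 1.29 and 1.41 in that order. For CD14 and MARCO it was 3 late libraries, with differences of 0.84 and 1.94, where MARCO was close to the detection limit. Without the reference, this number was 5 for STAB1 and MSR1, 4 for C1QB and MARCO, and 3 for MERTK. It was 2 for C1QA and C1QC and 0 for VSIG4 and CD14. CD163 differed by 0.13 between the stages on the relative scale, and 0 late libraries lay above its highest early value. Relative to the C1q sum, CD163 amounted to 12%, 16.9%, 4.87%, 12.6% and 6.29% in early and 3.37%, 7.5%, 3.46%, 2.24% and 3.08% in late libraries, so that only late library 2 lay within the early range. VSIG4 amounted to 4.24% to 12.7% of the C1q sum in early and to 4.08% to 4.79% in late libraries. These relative values are descriptions without a test. The share of all genes without overlap on the relative scale was not determined, so the counts of late libraries have no background there.

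**Figure D4:**
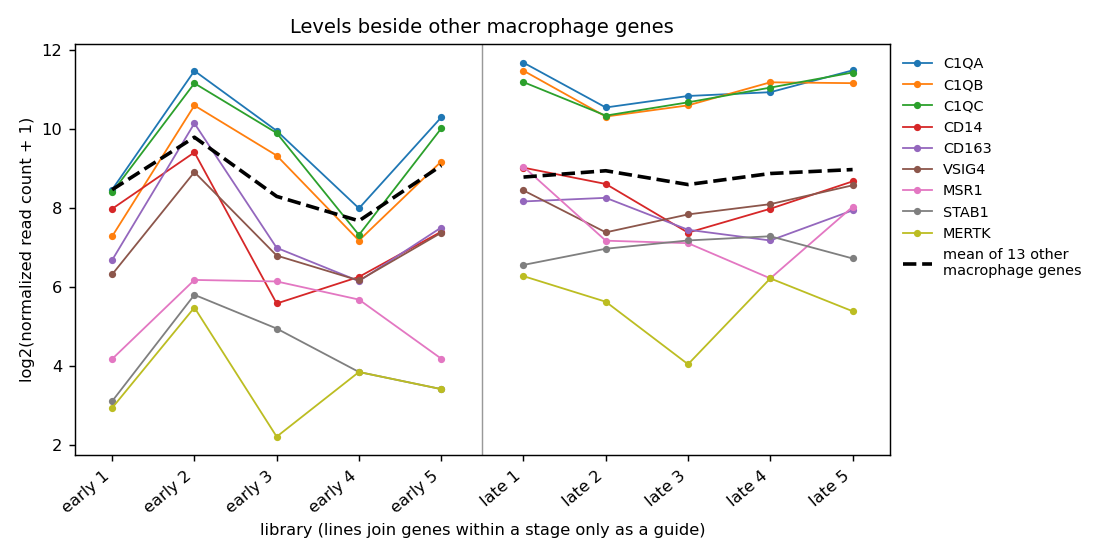
Points give the level of each tested member as log2 of the normalized read count plus 1 (y axis) in the 5 early and 5 late libraries (x axis), and the dashed line is the mean of 13 other macrophage and monocyte genes; lines only join the points of a gene within a stage. The dashed line has nearly the same mean in both stages (8.67 and 8.84). Relative to it, the C1q genes, MSR1, STAB1, MERTK and VSIG4 lie above their highest early value in at least 4 late libraries. CD14 does so in 3.

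The genes around the members, 88 in 5 lists of which 71 were tested, gave 2 calls in each direction. Of all genes tested, 1.06% were called higher and 1.11% lower, so calls this few are no result about the lists. Of the complement components, C1R, the protease that C1q activates, was called higher (281.9 ± 83.3 against 713.1 ± 188.4, log2FC 1.34 ± 0.23, BY-adjusted p = 0.041), and it was the only one of 10 tested. Its partner C1S had a log2FC of 0.55 ± 0.20 (adjusted p = 0.782). C3, the central component downstream of C1q, had the highest log2FC of the list from low values (2.65 ± 2.01 against 29.2 ± 16.6, log2FC 3.11 ± 0.64, adjusted p = 0.0844), and MASP1, a protease of the lectin pathway, had the lowest (-2.25 ± 0.76, adjusted p = 0.632). The median log2FC of this list was 0.53. Of 15 tested complement receptors and regulators, 0 were called and the median was 0.31. CR2, the B cell receptor for C3 fragments, had the highest log2FC (3.07 ± 0.81, adjusted p = 0.244), and ITGAM, a subunit of complement receptor type 3, had the lowest (-0.91 ± 0.72, adjusted p = 1).

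Of 14 other scavenger receptors tested, 0 were called, and the median log2FC was 0.10. CD5L, a secreted scavenger receptor protein of tissue macrophages, lay at 0 to 97.7 in early and at 215 to 821.1 in late libraries without overlap (log2FC 5.52 ± 1.17, BY-adjusted p = 0.0917). MRC1, the mannose receptor, had the lowest log2FC (-0.88 ± 0.31, adjusted p = 0.729). Around CD14, 1 of 14 tested genes was called, and it was lower: CD180, a Toll-like receptor homolog best known from B cells and dendritic cells, fell from 782.8 ± 136.4 to 301.1 ± 49.7 (log2FC -1.37 ± 0.16, adjusted p = 0.00812). TLR4 itself had a log2FC of 0.16 ± 0.56, IRAK3, an inhibitor of this signaling, had the highest of the list (0.24 ± 0.27, both adjusted p = 1), and the median was -0.24.

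Around MERTK, 2 of 18 tested genes were called, in opposite directions, with a median log2FC of -0.12. TIMD4, a receptor for phosphatidylserine on dying cells that resident macrophages carry, rose from 61.7 ± 39.1 to 333.2 ± 103.4 (log2FC 2.64 ± 0.43, BY-adjusted p = 0.0331). ITGB5, the integrin subunit that pairs with ITGAV in uptake of dying cells, fell from 293 ± 60 to 98.4 ± 15.7 (log2FC -1.55 ± 0.19, adjusted p = 0.00932). The genes of the MERTK ligands did not pass the test, with a log2FC of -1.10 ± 0.46 for GAS6 (adjusted p = 1) and of -1.29 ± 0.49 for PROS1, the gene of protein S (adjusted p = 0.942). The related receptor AXL had a log2FC of 0.24 ± 0.36 (adjusted p = 1). The calls of C1R and TIMD4 were lost, with 0 genes of the lists called higher, when early library 1, 4 or 5 or late library 1, 2, 4 or 5 was left out.

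**Figure D5:**
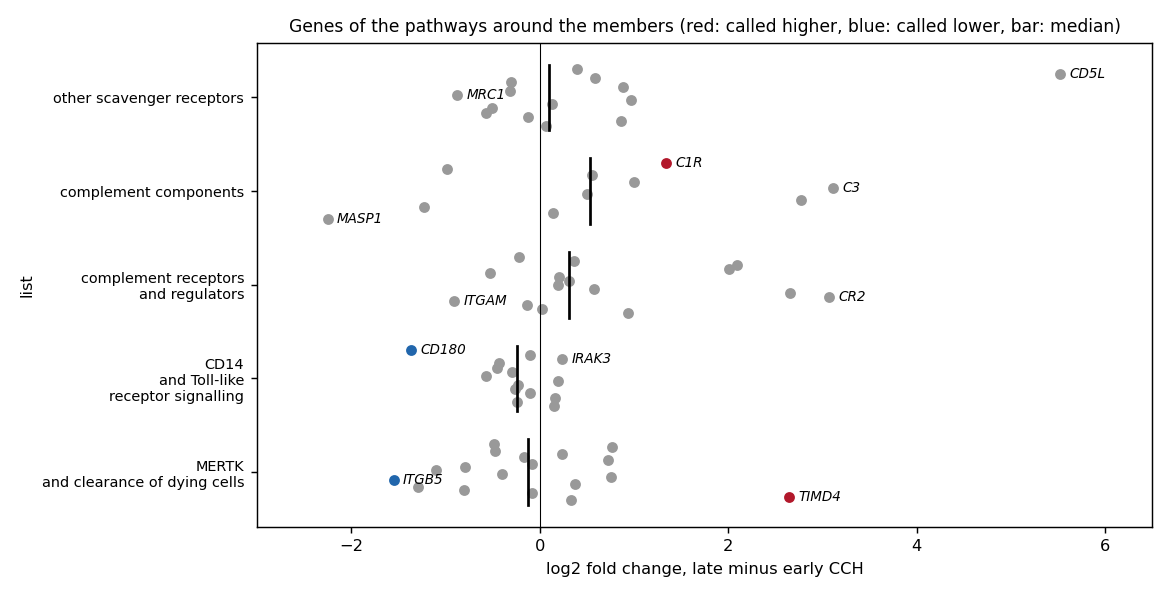
Each point is the log2FC (x axis, late minus early) of a tested gene in 1 of the 5 lists around the members (y axis); red points were called higher, blue points called lower, black bars are the medians of the lists, and the called genes and the highest and lowest gene of each list are named. Red points are C1R and TIMD4, blue points are CD180 and ITGB5, and the medians lie between -0.24 and 0.53.

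Genes of other cell types gave the setting of these values. Among 8 T cell genes, CD6 was called higher (log2FC 3.85 ± 0.58, BY-adjusted p = 0.0226), CD2 had the lowest log2FC (2.85 ± 0.59, adjusted p = 0.0853), and all 8 had late values above all early values. Among 7 Langerhans and dendritic cell genes, FLT3 (-2.89 ± 0.50, adjusted p = 0.0434) and FCER1A (-2.47 ± 0.42, adjusted p = 0.0401) were called lower, CD1A8 had the lowest log2FC (-3.80 ± 0.92, adjusted p = 0.171) and EPCAM the highest (-0.35 ± 0.46, adjusted p = 1). No row carried the symbol CD207, the defining marker of Langerhans cells, so this gene could not be analysed here. Of 6 B cell genes 0 were called, with CD79B highest (4.67 ± 0.88, adjusted p = 0.0562) and CD22 lowest (-0.28 ± 0.31, adjusted p = 1). The summed B cell values were 479 to 721 in early and 599 to 3147 in late libraries. Of the tested fibroblast, keratinocyte, neutrophil and mast cell genes, 0 were called, and their median log2FC was -0.38, -1.10, -0.97 and -1.50. The sums of these lists overlapped between the stages, with 7615 to 60438 in early and 10533 to 35601 in late libraries for fibroblast genes, 747 to 14989 and 594 to 7429 for keratinocyte genes, 222 to 9379 and 91 to 9002 for neutrophil genes, and 40 to 150 and 29 to 78 for mast cell genes. The highest and the lowest log2FC were those of DCN (-0.04) and LUM (-0.47) among fibroblast genes, DSG3 (-0.30) and KRT1 (-1.38) among keratinocyte genes, CSF3R (1.47) and S100A9 (-1.25) among neutrophil genes, and KIT (0.70) and CPA3 (-2.14) among mast cell genes, each with an adjusted p of 1. These values do not show whether cell makeup differed, and their part in the values of the members was not tested.

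Genes that followed the C1q genes most closely were found by the root mean square difference of centered log2 values over the 10 libraries, where 0 is identity. The search covered the genes tested, without the members and without symbols that start with LOC, so a gene left out could lie nearer. The nearest to the mean profile of the C1q genes were SLC6A8, a creatine transporter (0.491), C5AR2, a receptor for C5a (0.496), TCF7L2, a transcription factor of the Wnt pathway (0.504), PDCD1LG2, a ligand of PD-1 (0.512), and SDC4, a heparan sulfate proteoglycan (0.521). Their log2FC lay between 1.23 and 2.24, and the median difference over the genes searched was 1.39. The C1q genes themselves lay at 0.184 (C1QA), 0.277 (C1QB) and 0.17 (C1QC) from their mean. Each of them is part of that mean, so their distances are small in part by construction and cannot be set beside those of other genes. For CD163 the nearest genes were TCN2, which encodes a vitamin B12 carrier (0.292), C3AR1, the receptor for C3a (0.432), CPM, a carboxypeptidase (0.451), BMP1, a procollagen protease (0.487), and ANGPTL4, an inhibitor of lipoprotein lipase (0.515), against a median of 1.15 over the genes searched. VSIG4 lay at 0.627 from CD163, farther away than these 5. The libraries that share a stage also share its other differences, and the distances are given as a description.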

How the data were processed

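Gene expression was measured by QuantSeq 3′ in FFPE tissue of 5 early and 5 late CCH. Per the labels and methods, the authors trimmed reads with Cutadapt, aligned them with STAR to CanFam3.1 with RefSeq annotation, counted them with featureCounts in 2 rounds, the second on genes extended at their 3′ end, shared multi-mapped reads evenly among their places and tested genes with DESeq2. The versions are not given in the sources used here. The deposited signal is a normalized read count, the reads of a library divided by 1 size factor. Dividing by the worth of 1 read gave whole numbers for 100% of the 166096 values above 0 (tolerance 0.01) and so returned whole reads for the count-based alternatives. Of 21 value columns, 11 match no sample and were not used.

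Values plus a pseudocount of 1 were log2-transformed and tested with limma 3.58.1 (mean-variance trend, R 4.3.3) over the 10 libraries without covariates, leaving out genes that reached a value of 10 in fewer than 5 libraries. Calls required both a BY-adjusted p no larger than 0.05 and a log2FC no smaller than 1 in size. MARCO, which did not pass this filter, was compared with a two-sided exact permutation test. On simulated data for this comparison with 12397 genes, 98% of genes changed 8-fold and 9% of genes changed 2-fold were called, with 2 false calls. Changes were given only to genes with a mean value of at least 50, which leaves out MERTK and MARCO. A 2-fold change lies at the log2FC threshold itself. The tested members had a larger median SD in early CCH than all genes (1.41 against 0.421), so these percentages need not hold for them. Alternatives used edgeR 4.0.16, DESeq2 1.42.0, other pseudocounts, filters, scalings and adjustments, and left out each library in turn.

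The members, the gene lists and the tests were chosen with earlier results of these data known. The named genes are all members and, of each list, the called genes and those with the highest and the lowest log2FC, with the 5 genes nearest to the C1q mean and to CD163. C1S, TLR4, GAS6, PROS1 and AXL were named in addition for their role beside a member, after their values were seen. Symbols of all 10 members were found in the RefSeq table of UU_Cfam_GSD_1.0, which was used for neighboring genes only, and no sequences are shown.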

Additional observations from a re-analysis of the deposited data

Results flagged for a closer look

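Early library 2 stood apart from the other early libraries for 3 of the members, by a gap to the next value of more than 0.71 of the range of its group. Its normalized read count of CD163 was 1137, where the next highest early value was 181.4 (gap 0.896 of the range). For VSIG4 it was 482, where the next was 165.3 (0.77). For MERTK it was 43.7, where the next was 13.4 (0.756). In all, 28 groups of 5 libraries were examined, of which about 1.4 would pass this limit if the groups were independent and normally distributed. All 3 flags came from the same library, on read counts that were not log2-transformed. Whether the flags exceed chance can therefore not be told from these numbers. The same library also had the highest early sums of macrophage, fibroblast, neutrophil and endothelial genes and the lowest early sum of Langerhans and dendritic cell genes. For neutrophil genes early library 1 was close to it (8078 against 9379). The part of these sums in the 3 values was not tested.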

How the results depend on the processing

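Against 131 genes called higher and 138 called lower in all, 210 were called higher with a pseudocount of 10, 685 and 436 were called higher and lower with BH adjustment, 81 and 96 with edgeR, 480 and 330 with the DESeq2 Wald test, and 441 and 283 with shrunken DESeq2 fold changes. Without 1 library at a time, 18 to 144 genes were called higher and 29 to 153 lower. Of the members, 1 was called higher, against 4 with BH adjustment, 0 with edgeR, 2 with the DESeq2 Wald test, 2 with shrunken fold changes, and 0 to 2 without 1 library. None was called lower in any of these settings. Of the genes in the 5 pathway lists, 2 were called higher, against 4 with a pseudocount of 10, 7 with BH adjustment, 1 with edgeR and 0 to 4 without 1 library, and 2 were called lower. The log2FC of CD163 turned to -0.47 with edgeR, -0.48 with the DESeq2 Wald test, -0.26 with shrunken fold changes and -0.03 without early library 4 (range -0.03 to 0.97 without 1 library), and DESeq2 gave it no adjusted p, as for 15 genes in all. The other 8 tested members had a log2FC above 0 in every alternative run. MARCO differed by 2.54 and 0.75 on the log2 scale with a pseudocount of 0.5 and 10, by 1.82 to 2.85 without 1 library, and by 2.85 without late library 3 (exact permutation p = 0.0159). The causes were not tested. No paired analysis was possible because no column name holds a number that the stages share. MARCO, STAB1 and MERTK had 7, 126 and 84 reads in early CCH. Genes changed 2-fold, which is the fold threshold itself, were rarely called in simulated data for this comparison. In these data, genes as low as MARCO and MERTK were given no change.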
